A study of Macaca mulatta with 20 samples.

Results

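The genes described are 10 genes of the TGF-beta pathway, chosen by name with earlier results of these data known. These are the ligand TGFB1, the receptors TGFBR1, TGFBR2 and TGFBR3 and the signal carriers SMAD2, SMAD3 and SMAD4. The inhibitors SMAD7 and SKIL and the target gene TGFBI complete the list of genes. The 10 genes were measured in whole blood of male rhesus macaques on 20 one-color Agilent Whole Human Genome microarrays. There were 5 arrays in each of 4 groups: pre-irradiation (3 days before exposure) and day 2, day 5 and day 30 after 10 Gy of X-rays to the whole thorax. By the study's methods each animal's own earlier sample served as its control, and a pair here is 2 arrays of the same replicate number. No group of the 20 arrays came from unirradiated animals followed in parallel. The animals came from the arm given no mitigator, globin transcripts had been depleted from the RNA of every group, and 1 sample was a pool of RNA of 2 animals that the labels do not identify. Of 34127 probes on the array, 11 carry the name of one of the 10 genes, and 10 of these, for 9 genes, stood well above background on 5 arrays or more. These 10 probes were in fact well above background on all 20 arrays, and 19961 probes in all passed the same filter. The probe for SMAD2 was well above background on 0 of 20 arrays, so SMAD2 is not compared. Its level stays unknown, since the match of the human probe to the macaque transcript was not tested.

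TGF-beta is secreted in a latent form held by its own propeptide and by latent TGF-beta binding proteins, and it acts once it is released. The active ligand binds the type II receptor TGFBR2, which recruits and phosphorylates the type I receptor TGFBR1, while TGFBR3 (betaglycan) presents ligand without a kinase of its own. TGFBR1 then phosphorylates SMAD2 and SMAD3, which enter the nucleus with SMAD4 and turn genes on or off, and SMAD7 and SKIL damp the signal at the receptor and in the nucleus. In blood the ligand is stored in platelets and made by many leukocytes, it restrains T and NK cells, and in irradiated lung it is known for its part in fibrosis.

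The probes were designed on human transcripts, and their positions are those the array annotation gives on the human build hg19. The TGFB1 probe is shown whole because it is the only member probe whose 60 bases cover more than 60 bases of the genome and so cross an exon junction, at chr19:41838142-41847802 on the minus strand, a span of 9661 bases. The 2 TGFBR2 probes are shown because their values are given apart. They lie 32106 bases apart on the plus strand, at chr3:30735163-30735222 in a curated transcript and at chr3:30703057-30703116 in a predicted transcript model, and the longest run of letters they share is 4 bases, in capitals. The SMAD2 probe, at chr18:45360188-45360247 on the minus strand, is shown because it is the one that gave no signal well above background. For these 3 probes a stretch of 30 of the 60 bases is given, 5′ to 3′ in the sense of the transcript.
TGFB1: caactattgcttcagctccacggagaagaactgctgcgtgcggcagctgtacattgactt
TGFBR2 A_23_P211957: CATGctgataccatcccaatagctgttgcc
TGFBR2 A_33_P3313825: ctggctgggaatctgctCATGtgatgaaga
SMAD2: ttcatagtaaaaggaaaccaattgttgcag
Between 35.0% and 55.0% of the letters of a member probe are G or C, and the SMAD2 probe, at 35.0%, has the same share as the probes of SMAD3, SMAD4 and TGFBR1, which were detected on every array. How well the human letters match the macaque transcripts was not tested.

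Levels below are log2 processed signals minus the 75th percentile of the array, so a level of 0 equals that percentile, and a difference of 1 is a change by a factor of 2. A probe was called where a paired limma test over all 19961 probes gave p under 0.005 and the FDR, by the Benjamini-Hochberg procedure, was under 10%. No member probe was called in any of the 6 comparisons. Among all probes the share called was 0.0601% on day 2, 0% on day 5 and 0% on day 30 against pre-irradiation, 0% between days 5 and 2, 0.0501% between days 30 and 2 and 0% between days 30 and 5. At a p-value under 0.005 without the FDR limit, 1 of 10 member probes passed on day 2 (SMAD3), against 2.55% of all probes, and 0 of 10 on day 5 and on day 30, against 1.58% and 3.14%. At a p-value under 0.05, 3 of 10 member probes passed on day 2 (1 higher, 2 lower), 3 of 10 on day 5 (1 higher, 2 lower) and 4 of 10 on day 30 (3 higher, 1 lower), where 15%, 11.2% and 17.5% of all probes did. With 10 probes, a difference of 1 or 2 probes separates these counts from the background. The median log2 fold change of the members was -0.04 on day 2, -0.13 on day 5 and 0.08 on day 30, beside -0.04, 0.03 and -0.02 over all probes, and the members showed no shift in common. In bulk blood, fewer cells of a type and less RNA per cell cannot be told apart.

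**Figure D1:**
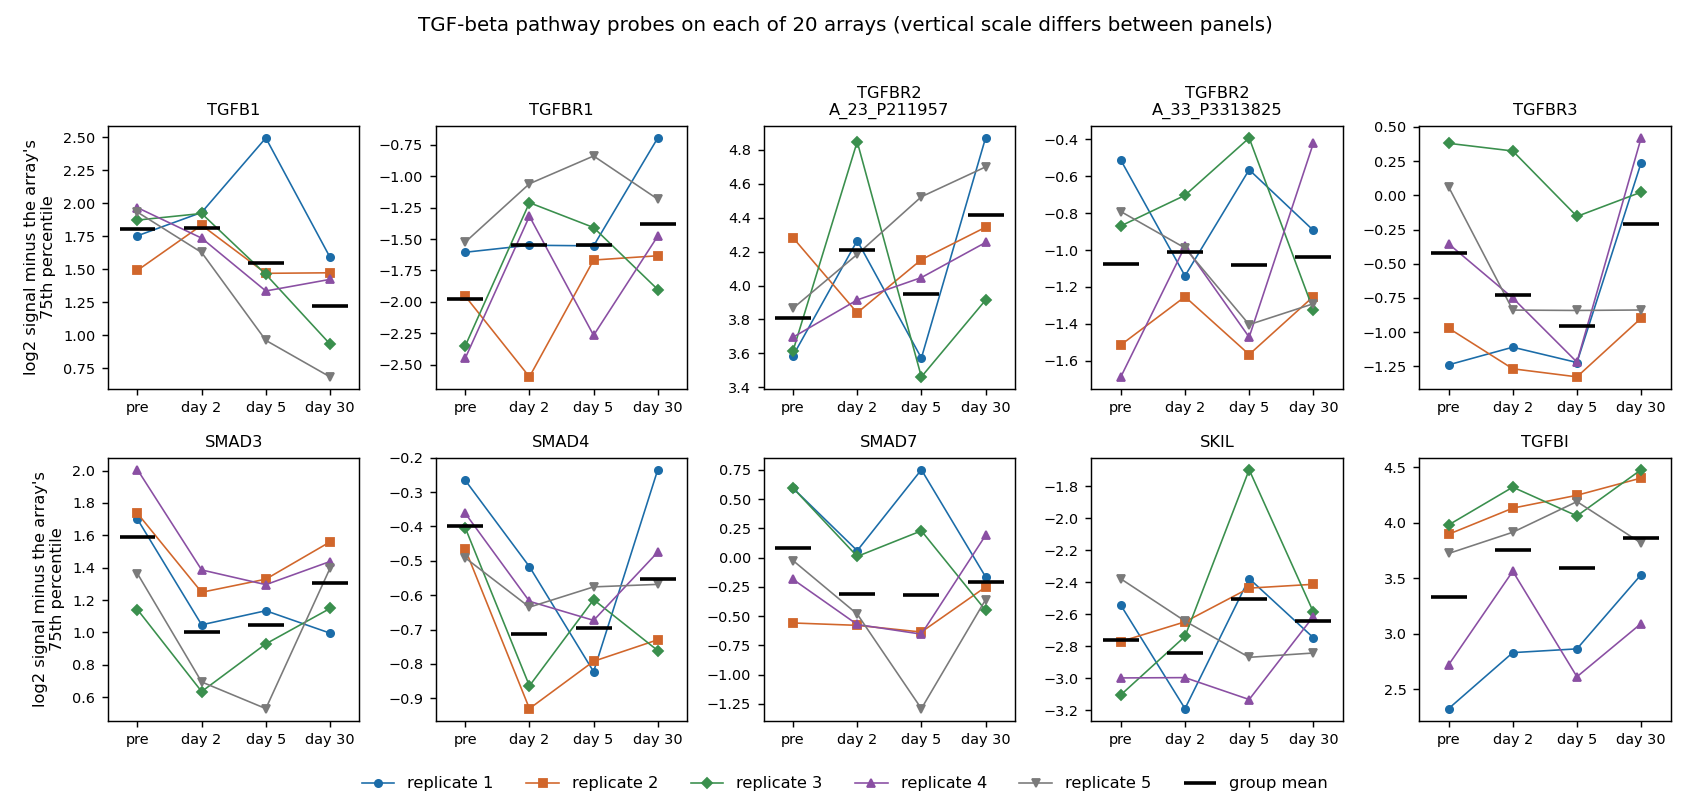
Log2 level (processed signal minus the array's 75th percentile) of each tested TGF-beta pathway probe in the 4 groups, with 1 line per replicate number and a bar at the mean of 5 arrays. SMAD3 and SMAD4 lie lower on day 2 than before irradiation in all 5 pairs, and TGFB1 lies lower on day 30 in all 5.

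The signal carriers SMAD3 and SMAD4 were lower in all 5 pairs on both early days. SMAD3, which TGFBR1 phosphorylates, had pre-irradiation levels of 1.70, 1.74, 1.14, 2.01 and 1.36 in replicates 1 to 5. On day 2 the levels of the same replicates were 1.05, 1.25, 0.63, 1.39 and 0.69, and on day 5 they were 1.13, 1.33, 0.93, 1.30 and 0.53. Each replicate's level lay below its own earlier level on both days. The difference on day 2 was of nearly the same size in every pair, between -0.67 and -0.49, although the groups overlap. The log2 fold change was -0.59 ± 0.14 (SE, n = 5 pairs) on day 2, a fold of 0.67, with an adjusted p of 0.172 in limma, and -0.55 ± 0.15 on day 5 with an adjusted p of 0.327. By day 30 the levels were 0.996, 1.56, 1.15, 1.44 and 1.40, lower than before irradiation in 3 of 5 pairs, with a log2 fold change of -0.28 ± 0.19. The order of the group means was pre-irradiation, day 30, day 5 and day 2, and the neighbours day 5 and day 2 lay 0.04 apart, less than the SD of 0.33 within either group. When all 20 arrays entered a single fit with the replicate block, SMAD3 on day 2 passed the call with an adjusted p of 0.0815. That single fit called 343 of all 19961 probes on day 2, where the main fit called 12. With the slide as a further block the adjusted p of SMAD3 was 0.173. Over all alternatives this adjusted p lay between 0.0815 and 0.518.

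SMAD4, the partner shared by all receptor-activated SMADs, had pre-irradiation levels of -0.27, -0.47, -0.40, -0.36 and -0.49. On day 2 they were -0.52, -0.93, -0.86, -0.62 and -0.63, and on day 5 they were -0.82, -0.79, -0.61, -0.67 and -0.58. Neither early group overlapped the pre-irradiation group, and SMAD4 was the only member for which this was so on those days, where 1.62% of all probes on day 2 and 0.641% on day 5 had groups that did not overlap. The step was small, with a log2 fold change of -0.31 ± 0.14 (SE, n = 5 pairs) on day 2 and -0.30 ± 0.14 on day 5, and limma gave adjusted p-values of 0.343 and 0.481. With normexp background correction the day 2 value was -0.11, with an adjusted p of 0.693. Paired by slide in place of replicate number, the levels were lower in 5 of 5 slides on both days. Groups that do not overlap give this count under any pairing, so it adds no support. On day 30 the levels lay between -0.76 and -0.23 and were lower than before irradiation in 4 of 5 pairs, by -0.16 ± 0.16. The SMAD3 and SMAD4 probes are each spotted 10 times on an array, and the median SD among those spots was 0.08 and 0.07 on the log2 scale, which covers the error of the spots and not that between animals.

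The T and NK cell markers moved the same way as the SMADs on the early days. Of 23 genes of that list, 22 had lower levels on day 2, 18 of them at a p-value under 0.05, with a median log2 fold change of -0.69, and the mean of the list lay between 2.24 and 2.75 before irradiation and between 1.43 and 1.98 on day 2. On day 5 the same number, 22 of 23, were lower, with a median of -0.40. On day 30 the median was -0.25 and 18 of 23 were lower. The part of this shift in the levels of SMAD3 and SMAD4 was not tested.

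The inhibitors did not change together. SMAD7, which binds the active type I receptor and recruits ubiquitin ligases to it, had pre-irradiation levels of 0.59, -0.56, 0.60, -0.19 and -0.02 and day 2 levels of 0.06, -0.58, 0.01, -0.57 and -0.48. All 5 replicates were lower on day 2, replicate 2 by only 0.02. The log2 fold change was -0.40 ± 0.15 (SE, n = 5 pairs) with an adjusted p of 0.291 in limma. On day 5 its levels spread from -1.29 to 0.75, the widest range of the 4 groups, with 4 of 5 pairs lower and a log2 fold change of -0.40 ± 0.22, which was -0.19 without replicate 5. SKIL (SnoN), a repressor that holds SMAD complexes inactive, had levels between -3.11 and -2.38 before irradiation, between -3.19 and -2.64 on day 2, between -3.13 and -1.70 on day 5 and between -2.84 and -2.41 on day 30. Its groups overlapped throughout, and its log2 fold changes of -0.08 ± 0.18, 0.26 ± 0.27 and 0.12 ± 0.20 were of the size of their errors.

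The receptors differed from each other. TGFBR1, the type I kinase, had pre-irradiation levels of -1.61, -1.96, -2.35, -2.45 and -1.52 and day 30 levels of -0.69, -1.63, -1.90, -1.48 and -1.18. All 5 replicates were higher on day 30, and the groups overlapped. The log2 fold change of 0.60 ± 0.18 (SE, n = 5 pairs), a fold of 1.52, had the lowest adjusted p of any member that day, 0.177 in limma. On day 5 all 5 pairs were higher as well, by 0.43 ± 0.18, and on day 2 it was 4 of 5, by 0.43 ± 0.28, replicate 2 being lower by 0.64. The 3 post-irradiation group means lay between -1.55 and -1.38, closer to each other than the SD of 0.46 within the day 30 group.

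For TGFBR2, the type II kinase that binds the ligand, the probe A_23_P211957 had pre-irradiation levels of 3.59, 4.28, 3.62, 3.70 and 3.87 and day 30 levels of 4.87, 4.34, 3.91, 4.25 and 4.70. It was higher in all 5 pairs on day 30, from 0.06 in replicate 2 to 1.29 in replicate 1, with a log2 fold change of 0.61 ± 0.21 (SE, n = 5 pairs) and an adjusted p of 0.210 in limma. On day 2 it was higher in 4 of 5 pairs, by 0.40 ± 0.24, and on day 5 in 2 of 5, by 0.14 ± 0.17. For the other TGFBR2 probe, A_33_P3313825, the log2 fold changes were 0.06 ± 0.21, -0.01 ± 0.18 and 0.04 ± 0.28, and the levels lay between -1.69 and -0.39 over the 20 arrays. The difference between the probes was not tested, and in replicates 2 and 4 A_33_P3313825 had the larger day 30 difference. Which of them reports the main macaque transcript was not tested.

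TGFBR3, the co-receptor betaglycan, had pre-irradiation levels of -1.24, -0.97, 0.38, -0.35 and 0.06 and day 5 levels of -1.22, -1.33, -0.15, -1.22 and -0.84. It was lower on day 5 in 4 of 5 pairs and higher by 0.02 in replicate 1, with a log2 fold change of -0.53 ± 0.18 (SE, n = 5 pairs) and an adjusted p of 0.369 in limma. On day 2 it was lower in 4 of 5 pairs, by -0.30 ± 0.18. By day 30 the levels were 0.24, -0.90, 0.02, 0.42 and -0.84, above day 5 in 5 of 5 pairs by 0.74 ± 0.28, with an adjusted p of 0.569 and with replicate 5 higher by only 0.003. Against pre-irradiation the day 30 difference was 0.21 ± 0.33, and it became -0.10 without replicate 1.

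**Figure D2:**
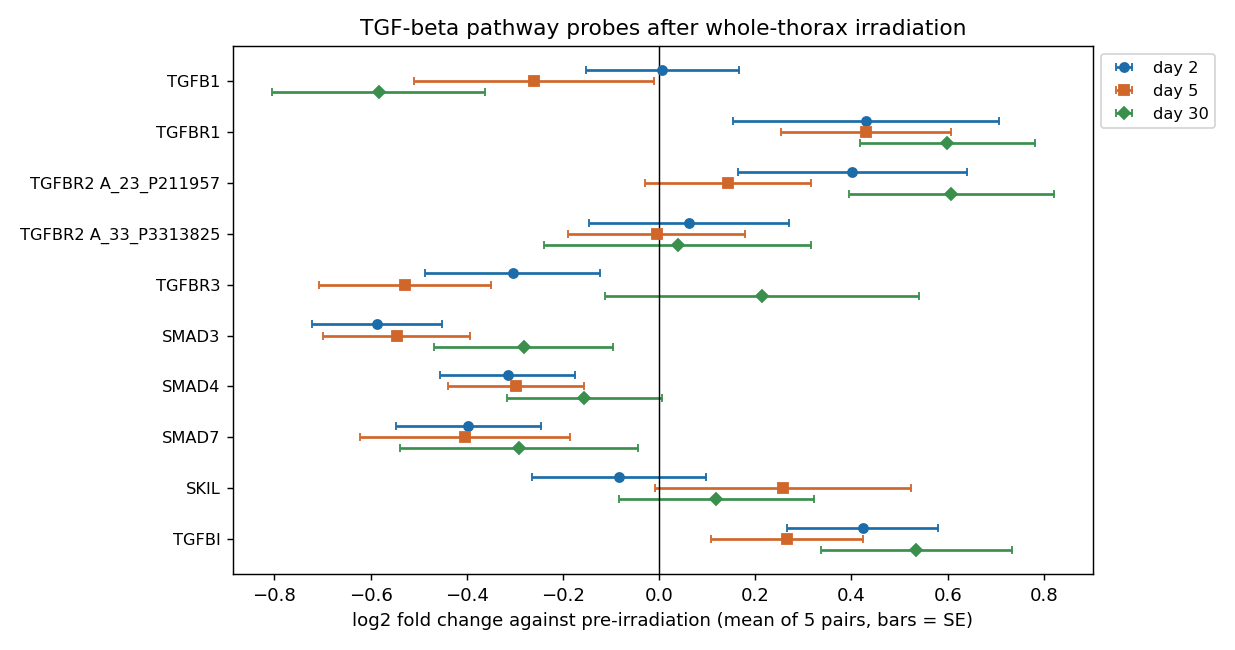
Log2 fold change of each tested TGF-beta pathway probe on day 2, day 5 and day 30 against pre-irradiation, as the mean of 5 pairs with the SE of the limma fit. TGFBR1, TGFBR2 A_23_P211957 and TGFBI lie to the right on day 30, at 0.54 to 0.61, TGFB1 lies to the left at -0.58, and SMAD3 lies to the left on days 2 and 5.

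The ligand TGFB1 was level on day 2 and lower on day 30. Its pre-irradiation levels were 1.75, 1.49, 1.87, 1.97 and 1.93, and its day 2 levels were 1.93, 1.83, 1.92, 1.74 and 1.63, a difference of 0.01 ± 0.16 (SE, n = 5 pairs) with 3 of 5 pairs higher. On day 30 the levels were 1.59, 1.47, 0.93, 1.42 and 0.68. All 5 were lower than before irradiation, from -1.25 in replicate 5 to -0.02 in replicate 2, and the log2 fold change was -0.58 ± 0.22 with an adjusted p of 0.237 in limma. With normexp background correction the value was -0.60, the adjusted p was 0.085 and TGFB1 passed the call. In that setting 967 of all 19961 probes were called on day 30, where the main fit called 0. Over all alternatives the adjusted p of TGFB1 lay between 0.085 and 0.426. On day 5 the levels were 2.50, 1.47, 1.46, 1.34 and 0.96, so that replicate 1 was the highest of all 20 arrays while the other 4 lay below the lowest level before irradiation, and the difference was -0.26 ± 0.25. Leaving out replicate 1 moved this to -0.51, and leaving out replicate 5 moved it to -0.081. The median SD among the 10 spots of the TGFB1 probe on an array was 0.05.

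Days 30 and 2 did not overlap for TGFB1, the day 30 levels lying below the day 2 levels in every array. The log2 fold change between them was -0.59 ± 0.17 (SE, n = 5 pairs) with an adjusted p of 0.361 in limma. With normexp background correction it was -0.31, with an adjusted p of 0.522. Groups did not overlap for 1.80% of all probes in this comparison, and TGFB1 was the only one of the 10 members. Platelet markers, from cells that store the TGF-beta protein, had a different course: all 10 measured genes of that list were higher on day 2 than before irradiation at a p-value under 0.05, with a median of 1.47, and 7 of 10 were lower on day 30, with a median of -0.25. Between days 2 and 30 the platelet markers were lower by a median of -1.73 and TGFB1 by -0.59, while between pre-irradiation and day 2 the platelet markers were higher and TGFB1 was level. The part of platelets in the TGFB1 level was not tested.

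TGFBI, a secreted matrix protein named for its induction by TGF-beta, is strongly expressed in monocytes and macrophages. Its pre-irradiation levels were 2.33, 3.90, 3.98, 2.72 and 3.72, its day 2 levels 2.83, 4.13, 4.32, 3.56 and 3.92 and its day 30 levels 3.53, 4.40, 4.48, 3.09 and 3.82. Each replicate was above its own earlier level on both days, and replicates that were low before irradiation stayed low, so the groups overlap. The log2 fold change was 0.42 ± 0.16 (SE, n = 5 pairs) on day 2 and 0.54 ± 0.20 on day 30, with adjusted p-values of 0.283 and 0.232 in limma, and on day 5 it was 0.27 ± 0.16 with 4 of 5 pairs higher. Markers of monocytes and macrophages were higher too, 8 of 9 genes on day 2 with a median of 0.58 and 9 of 9 on day 30 with a median of 0.53. Their part in the TGFBI level was not tested. With normexp background correction the day 2 value of TGFBI was -0.02, and in that setting the median of all probes was 0.17 in place of -0.04.

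Counted over the members, 4 of 10 probes had the same direction in every pair on day 2 (SMAD3, SMAD4 and SMAD7 lower, TGFBI higher), 3 of 10 on day 5 (SMAD3 and SMAD4 lower, TGFBR1 higher) and 4 of 10 on day 30 (TGFBR1, TGFBR2 A_23_P211957 and TGFBI higher, TGFB1 lower). Of all probes, 14.4%, 13.1% and 18% did. On day 30 no member had groups that did not overlap with pre-irradiation, where 2.04% of all probes had. Of the comparisons between days, day 5 against day 2 held 0 of 10 members at a p-value under 0.05 and 0 at a p-value under 0.005, where 3.56% and 0.276% of all probes passed, and no member's groups were apart, against 0.165% of all probes. Day 30 against day 2 held 1 of 10 at a p-value under 0.05 (TGFB1) and 0 at a p-value under 0.005, against 12.8% and 1.45%. Day 30 against day 5 held 1 of 10 at a p-value under 0.05 (TGFBR3) and 0 at a p-value under 0.005, against 8.48% and 0.681%, and 0 members with groups apart, against 0.611%. All 3 days share their pre-irradiation arrays, so the values of the 3 days for a gene are not independent of each other.

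A wider list of the pathway held 82 further genes in 7 roles. Of these, 78 probes of 61 genes could be tested, and none was called in any comparison. The list was chosen with earlier results of these data known, and genes with several probes are counted repeatedly. The shares given for this list on each day describe it and carry no test. On day 2, 22 of the 78 had a p-value under 0.05, 18 of them higher and 4 lower, which is 28.2% beside 15% of all probes, and the median log2 fold change was 0.16. Of those 22, 11 came from the role of ligands and latency, where 11 of 16 probes (68.8%) had a p-value under 0.05 and were higher, and the median of the 16 was 0.69. As listed, that role also holds TGFB1I1, a focal adhesion protein and not a ligand or a protein of latency. LTBP1, which tethers latent TGF-beta to the matrix, was higher by 1.59 ± 0.31 (SE, n = 5 pairs) on one probe and by 1.53 ± 0.22 on the other, which was well above background on only 2 of 5 pre-irradiation arrays. BMP6, a bone morphogenetic protein, was higher by 1.83 ± 0.33, INHBB, a subunit of activin B, by 1.43 ± 0.35 with 3 of 5 pre-irradiation arrays well above background, GDF15, a stress-induced member of the superfamily, by 0.83 ± 0.17 and FURIN, the protease that cleaves the TGF-beta propeptide, by 0.79 ± 0.20. All 6 probes were higher in 5 of 5 pairs, at p-values under 0.005 and with adjusted p-values between 0.131 and 0.195 in limma.

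BMP6 had levels between -3.14 and -1.81 before irradiation and between -1.55 and 0.25 on day 2, and the groups did not overlap. For GDF15 the ranges were -2.03 to -1.38 and -1.22 to -0.16, again apart. Of the 78 probes 4 had groups that did not overlap on day 2, where 1.62% of all probes had. The platelet marker list, higher by a median of 1.47 on that day, moved with them, and its part was not tested. BMP6 and LTBP1 passed the call on day 2 when all 20 arrays entered a single fit with the replicate block. The adjusted p-values were 0.0207 for BMP6 and 0.0305 and 0.0275 for the LTBP1 probes. Over all alternatives these lay between 0.0207 and 0.439 for BMP6 and between 0.0275 and 0.451 for LTBP1. That single fit called 343 of all 19961 probes on day 2, where the main fit called 12.

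Among the genes of turnover and dampening of the signal, PPP1R15A (GADD34), a phosphatase subunit that SMAD7 brings to the receptor, was higher by 0.86 ± 0.21. USP15, which removes ubiquitin from the receptor and the SMADs, was higher by 0.61 ± 0.15 and 0.46 ± 0.15 on its 2 probes. These 3 of 19 probes, or 15.8%, had a p-value under 0.05 on day 2, near the 15% of all probes. Among the nuclear repressors the 2 probes of TGIF1 had differences of -0.46 ± 0.15, in 5 of 5 pairs, and -0.24 ± 0.18, and 4 of 5 probes of the role were lower, 2 of them at a p-value under 0.05, with a median of -0.38. Of 13 probes of known target genes, JUNB was higher by 0.95 ± 0.20 and TSC22D1 by 1.04 ± 0.24. CDKN1A (p21) was higher by 1.26 ± 0.43, with only 2 of 5 pre-irradiation arrays well above background. Both probes of ID2 were lower, by -0.62 ± 0.21 and -0.50 ± 0.14. JUNB and CDKN1A also answer to many signals besides TGF-beta. None of 8 probes of other receptors and none of 10 of the non-SMAD branch had a p-value under 0.05, the lowest being those of a probe of ACVR1 that was well above background on 2 of 5 pre-irradiation and 1 of 5 day 2 arrays and of a probe of ROCK1 at 0.29 ± 0.20, whose other probe was at -0.10 ± 0.15. Among SMADs and partners the lowest p-value was that of ZFYVE16, an endosomal scaffold protein, which was not well above background on any pre-irradiation array. With pre-irradiation levels under the lowest well-above-background level of their array raised to it, the day 2 mean was 1.59-fold higher. That is 0.673 on the log2 scale and is no lower bound, since the error between pairs and the processing are left out. Normexp gave 0.64 on the log2 scale. In the main fit 4 of 5 pairs were higher, with an adjusted p of 0.248 in limma.

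**Figure D3:**
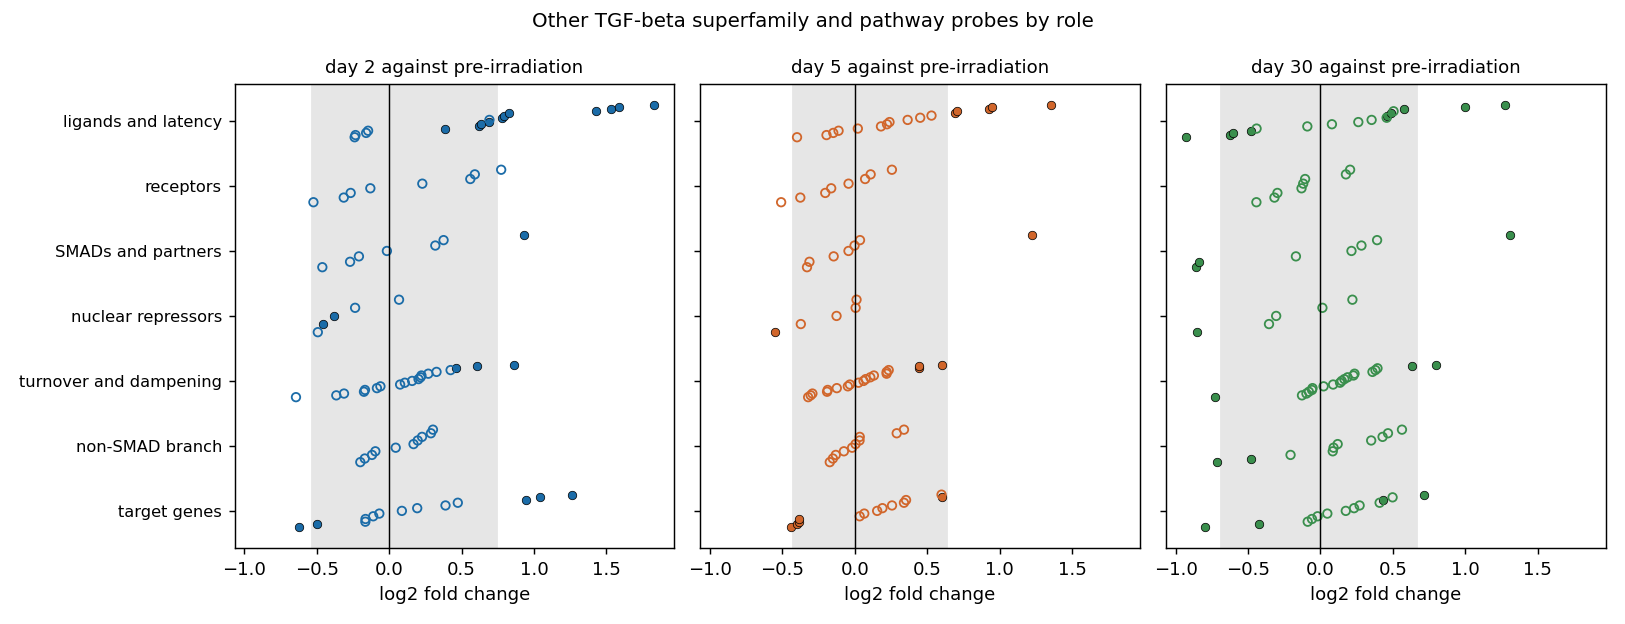
Log2 fold change of 78 further pathway probes against pre-irradiation, by role, on day 2, day 5 and day 30. Filled points have a p-value under 0.05 in limma, open points do not, and the grey band holds the values of all probes between their 5th and 95th percentiles. On day 2 the ligand and latency probes spread to the right, up to 1.83.

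On day 5, 15 of the 78 probes had a p-value under 0.05, 10 higher and 5 lower, which is 19.2% beside 11.2% of all probes, and the median was 0.03. INHBB was still higher, by 1.35 ± 0.24 (SE, n = 5 pairs), with an adjusted p of 0.279 in limma. ZFYVE16, with dim levels raised as on day 2, was 1.95-fold higher, or 0.963 on the log2 scale, and normexp gave 0.33. Its adjusted p in the main limma fit was the same as that of INHBB. PPP1R15A was higher by 0.44 ± 0.14, and TGIF1 and ID3 were lower, by -0.55 ± 0.16 and -0.39 ± 0.14, each in 5 of 5 pairs. The other TGIF1 probe had a difference of -0.13 ± 0.14. MAPK14 (p38 alpha) had a difference of 0.29 ± 0.14, and the probes of BMPR1A of -0.51 ± 0.32 and -0.20 ± 0.18. The means of both LTBP1 probes lay between those of day 2 and pre-irradiation, below day 2 by -1.14 ± 0.33 in 4 of 5 pairs for A_23_P43810 and by -1.001 ± 0.24 in 5 of 5 for the dimmer A_33_P3304655. TGFB1I1 (HIC-5), a focal adhesion protein that TGF-beta induces, lay below day 2 by -0.92 ± 0.22 in 5 of 5 pairs, and the adjusted p was 0.972 for each of the LTBP1 and TGFB1I1 probes.

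On day 30, 22 of the 78 had a p-value under 0.05, 10 higher and 12 lower, which is 28.2% beside 17.5% of all probes, and the median was 0.11. Among the 16 probes of ligands and latency 5 were higher and 4 lower at a p-value under 0.05 in limma, which is 56.2%. At any p-value 10 of the 16 were higher, and their median was 0.31. ITGAV, the integrin alpha V chain that helps release the ligand, was higher by 1.28 ± 0.26 (SE, n = 5 pairs). LTBP3 was lower by -0.93 ± 0.25, and the adjusted p-values of the 2 were 0.126 and 0.159 in limma. NRROS, which holds latent TGF-beta on myeloid cells, and TGFB1I1 were lower as well, by -0.63 and -0.60, at unadjusted p-values of 0.0129 and 0.00967. ZFYVE16, with dim levels raised as on day 2, was 2.07-fold higher than before irradiation, or 1.05 on the log2 scale, and normexp gave 0.52. KLF11, a transcription factor induced early by TGF-beta, was higher by 0.71 ± 0.20. The 2 probes of the GTPase RHOA went apart, A_33_P3364661 being lower by -0.71 ± 0.17 in 5 of 5 pairs and A_23_P69493 having a difference of 0.09 ± 0.16 with 4 of 5 pairs higher. Those of USP15 had differences of 0.80 ± 0.29 and 0.39 ± 0.21. MECOM (EVI1), a repressor of SMAD3, was well above background on 2 of 5 pre-irradiation and 0 of 5 day 30 arrays and is not compared, and ACVR1C had a difference of -0.44 ± 0.29, or 0.01 with normexp background correction. Normexp gave 0.79 for ITGAV, which then passed the call with an adjusted p of 0.0237, as did ZFYVE16 at 0.0695 and KLF11 at 0.0866. In that setting 967 of all 19961 probes were called, where the main fit called 0. Normexp gave -0.28 for LTBP3, with an unadjusted p of 0.0718. Against day 2, day 30 levels were lower for TGFB1I1 by -1.38 ± 0.24, BMP6 by -1.37 ± 0.32 and CDKN1A by -1.32 ± 0.31, and higher for ID2 by 0.73 ± 0.14, with adjusted p-values between 0.201 and 0.314. The CDKN1A probe was well above background on 3 of 5 day 30 arrays, and normexp gave -0.44 for its difference. In the single fit of all 20 arrays with the replicate block TGFB1I1, ID2 and BMP6 passed the call in this comparison. Their adjusted p-values were 0.0108, 0.0206 and 0.0758, and with the slide added these were 0.0394, 0.0731 and 0.168. The 2 fits called 164 and 94 of all 19961 probes, where the main fit called 10.

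Across the 20 arrays, the genes whose levels followed the members most closely were looked up among 15322 probes that were measured on every array. Since the arrays are 4 samples of each of 5 replicates and share cell composition, these correlations describe the arrays and carry no test. SMAD3 ran with SYNE1 (Pearson's r 0.939), ABLIM1 (0.927) and CNOT6L (0.923), and SMAD7 with EXOC3 (0.895), CYTH1 (0.854) and BRE (0.852). TGFB1 ran with FXYD5 (0.901), CD3E (0.862), a chain of the T cell receptor complex, and PRPF8 (0.861). TGFBR1 ran with VPS37C (0.921), ARAP3 (0.917) and JDP2 (0.910), TGFBR2 A_23_P211957 with ARPC1A (0.936), OSBPL11 (0.926) and GGNBP2 (0.926), and TGFBI with SCARB2 (0.904), CARD9 (0.888) and NLRP3 (0.866), an inflammasome sensor of myeloid cells. For TGFBR3, SMAD4 and SKIL the closest genes, FZD1, TLE1 and LOC100133091, reached 0.787, 0.791 and 0.799.

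**Figure D4:**
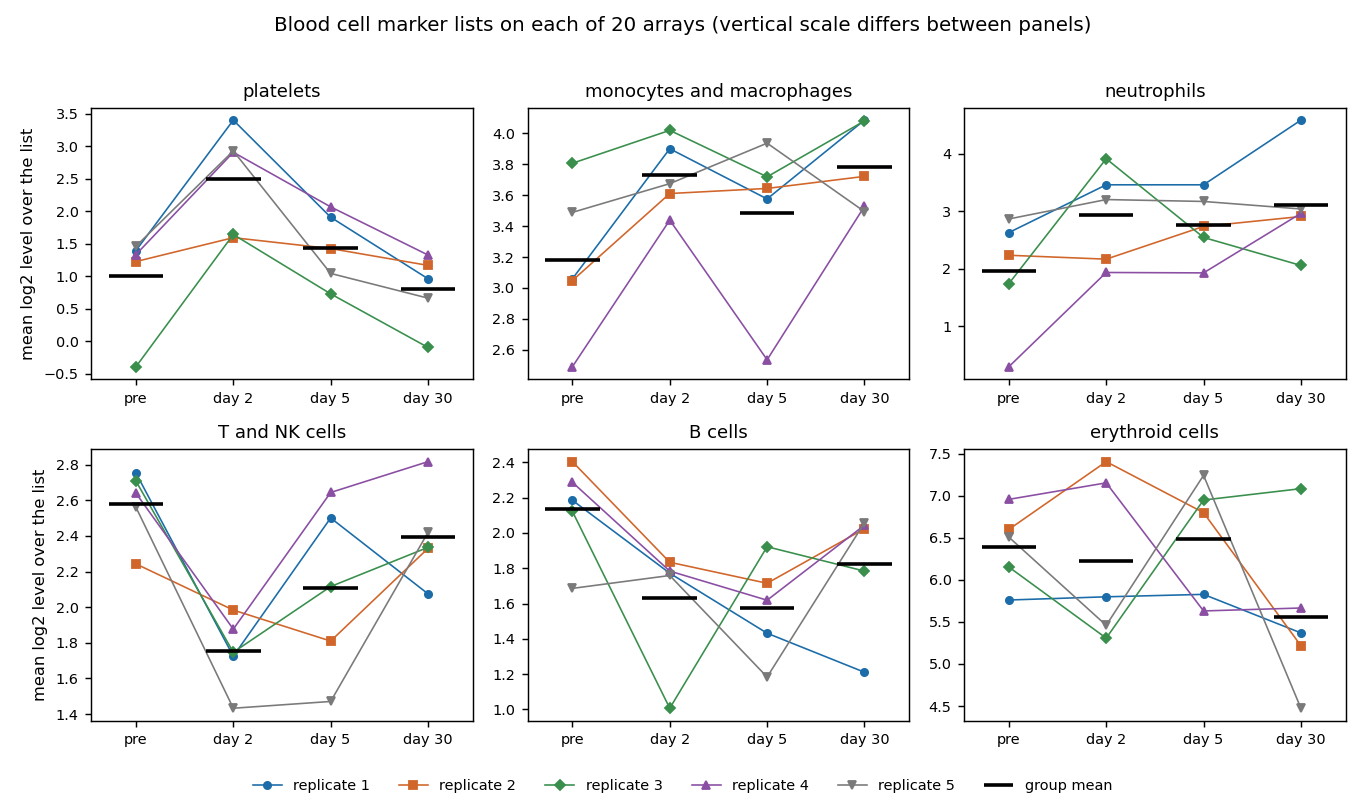
Mean log2 level of 6 blood cell marker lists on each array, with 1 line per replicate number and a bar at the mean of 5 arrays. Platelet markers lie highest on day 2, between 1.59 and 3.40, and T and NK cell markers lie lowest then, between 1.43 and 1.98.

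The remaining lists give the setting of these values. Neutrophil markers were higher on all 3 days, 9 of 9 genes each time, with medians of 1.01, 0.64 and 1.03, and B cell markers were lower, with medians of -0.50, -0.52 and -0.49 over 8 genes. Erythroid markers had medians of -0.07, 0.09 and -0.80 in the globin-depleted RNA. On each array 50.9% to 67.3% of spots stood well above background, and any 2 arrays had a Pearson's r of at least 0.926 over all probes.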

How the data were processed

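Globin-depleted RNA from whole blood was hybridized by the authors to one-color Agilent arrays and read with Feature Extraction, version 10.7 per the labels and 12.0.2.2 per the file headers. The deposited files hold spot intensity, background-subtracted by that software, and a deposited log2 table of 5884 probes that includes 6 member probes. Here log2 of the processed intensity was taken minus each array's 75th percentile, spots marked non-uniform or population outlier and control spots were left out, spots of a probe were averaged, and probes well above background on at least 5 of 20 arrays with at least 4 pairs were tested with limma 3.58.1 in R 4.3.3, on the 2 groups compared and with the replicate number as a block. The pairing comes from the study's methods, which compare samples of the same animal. Deviations of same-numbered arrays correlated with those before irradiation with r between 0.173 and 0.482 on day 2, 0.124 and 0.654 on day 5 and 0.0419 and 0.434 on day 30. Arrays of different numbers reached 0.26, 0.231 and 0.323. The own number gave the highest r for 4, 5 and 2 of 5 arrays. Between days 30 and 2 the lowest same-number r was -0.162, so the data bear out the pairing only in part. The 5 slides each held 1 array of each group. Their number limits the precision. The fit was tested on simulated data.

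The members, the wider pathway list and the marker lists were chosen with earlier results of these data known. Of the wider list, probes with p under 0.005 in a comparison or the lowest p of their role against pre-irradiation are named, and CDKN1A and ID2 on day 2 and NRROS and TGFB1I1 on day 30 were added after their values were seen. Alternatives were another normalization or background correction (normexp with an offset of 50), other filters, the deposited log2 values, other designs, and leaving out each replicate. Exon and UTR annotation was not used here, and 1 probe sequence is not reported here.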

Additional observations from a re-analysis of the deposited data

How the results depend on the processing

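Of 565 recomputed values of the members, 545 kept their direction and their side of the threshold. SMAD3 on day 2 passed the call in the fit of all 20 arrays and TGFB1 on day 30 with normexp. In each of these 1 member was called in place of 0, and none was called elsewhere, leaving out replicates included. Over all 19961 probes the same settings called 343 in place of 12 on day 2 and 967 in place of 0 on day 30. With normexp the day 2 value was -0.29 for TGFB1, -0.037 for TGFBR2 A_23_P211957, 0.40 for SKIL and -0.015 for TGFBI. The day 5 value was 0.012 for TGFBR2 A_33_P3313825, and the day 30 values were 0.0057 for ACVR1C and 0.063 for MECOM. All of these had the other sign in the main fit, where MECOM, too dim to compare, was at -0.85. Quantile normalization gave -0.036 for TGFB1 on day 2. The median of all probes moved by over 0.1 with normexp on day 2, to 0.17, and on day 30, to 0.11, with the deposited values on both days, to 0.12, and with median scaling on day 5, to -0.11. Of 35 values named from the wider pathway list 34 lay closer to 0 with normexp, and 24 were over 1.5 times smaller. Normexp was run with an offset of 50 added to every intensity, which by itself shrinks log2 differences of dim probes. The 35 values had been named for low p-values in the main fit. The part of either in the change was not tested.

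Leaving out a replicate gave -0.078 to 0.084 for TGFB1, -0.20 to 0.057 for SKIL and -0.099 to 0.23 for TGFBR2 A_33_P3313825 on day 2, and for the last of these -0.13 to 0.15 on day 5 and -0.27 to 0.17 on day 30. SKIL on day 5 ranged from -0.031 to 0.44 and TGFBR3 on day 30 from -0.10 to 0.49.

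Counts of members were small. At p under 0.005, the 1 member of day 2, SMAD3, became 0 without a filter on dim probes, with no replicate block and without any 1 replicate. The deposited values hold 6 member probes and SMAD3 is not among them, so their 0 on day 2 says nothing about SMAD3. The 0 of day 5 became 1 with normexp, with probes above background on all 20 arrays, in both fits of all 20 arrays and with an intensity trend, and the 0 of day 30 became 1 with normexp. At p under 0.05, day 2 had 0 of 6 with the deposited values and 1 to 5 of 10 without a replicate. Day 5 had 1 of 6 with the deposited values, 1 of 10 with no replicate block and 1 to 4 of 10 without a replicate. Day 30 had 2 of 6 with the deposited values and 2 to 3 of 10 without a replicate. Between days 5 and 2 there were 0 to 1 without a replicate. Between days 30 and 2 there were 2 with a plain paired test per probe and 1 to 3 without a replicate. Between days 30 and 5 there were 2 with median scaling, normexp or an intensity trend, 0 with that plain paired test, and 0 to 1 without a replicate. With no replicate block SMAD3 on day 2 was -0.59 with an adjusted p of 0.429 in limma, and in the fits of only the 2 groups compared no member was called with or without the block, normexp aside. Over all probes, 12 were called on day 2 and 0 with no replicate block, 588 without replicate 2 and 343 in the fit of all 20 arrays, and on day 30 the 0 became 967 with normexp. Dim probes such as SMAD2 are limited by signal over background.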
